A study of Homo sapiens with 8 samples.

Results

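The genes described here encode cyclins, cyclin-dependent kinases (CDKs), CDK inhibitors, CDC proteins and subunits of the anaphase-promoting complex (APC/C). They were chosen by their symbols, which begin with CCN and a letter, CDK and a digit, CDKN, CDC and a digit, or ANAPC. The CDC42 names and symbols with a hyphen were left out. The rule found 81 of the 10105 genes counted, of which 20 are cyclins, 23 carry a CDK name, 10 a CDKN name, 18 a CDC name and 10 an ANAPC name. The rule uses names and no measured value, and it was set with earlier results of these data known.

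A CDK phosphorylates its substrates only when a cyclin is bound to it, so the rise and fall of cyclins sets when each kinase works during the cell cycle. CDK inhibitors bind the kinases or their cyclins, the CDC25 phosphatases remove inhibitory phosphates, and the APC/C is a ubiquitin ligase that marks mitotic cyclins for destruction. Many proteins of these families have other work, among them the kinases that phosphorylate RNA polymerase II and the cyclins that bind them.

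Total mRNA (RNA-Seq) and ribosome footprints (Ribo-Seq, abbreviated RPF) were counted per gene in HEK293T cells that were either wild-type (WT) or XRN1-null. Each combination of genotype and assay had 2 biological replicates, which makes 8 libraries. HEK293T is a line of human embryonic kidney cells that carries viral oncoproteins, including the SV40 large T antigen, which binds the RB protein that normally restrains the cell cycle. XRN1 is the cytoplasmic exoribonuclease that degrades decapped mRNAs from the 5′ end. The XRN1-null cells are 1 line made by CRISPR/Cas9 editing of an exon of XRN1, so the absence of XRN1 and other differences between this line and its parent cannot be told apart. The sample titles name no treatment, and the paper describes the same plating before harvest for both genotypes.

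RNA-Seq totals were 33757487 to 38145433 counts and Ribo-Seq totals 1921641 to 4399542, with the lowest in WT replicate 1. The 81 genes held 0.767% to 0.831% of the RNA-Seq counts and 0.626% to 0.688% of the Ribo-Seq counts, and 79 of them had at least 10 counts in every library. The exceptions were CDKN1C, with 8 counts at the lowest, and CDKN2D, with 4. The WT replicates differed from each other more than the XRN1-null replicates did, with a chi-square per degree of freedom of 24.0 against 3.84 in RNA-Seq and 7.77 against 2.02 in Ribo-Seq. XRN1 itself had 33.5 and 33.0 counts per 1000000 counts (CPM) in the WT RNA-Seq libraries and 282 and 253 CPM in the XRN1-null ones, while its footprints were at 34.4 and 49.8 CPM in WT and 22.6 and 18.4 CPM in XRN1-null cells. Its counts cover the whole gene and do not measure the edited bases.

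Changes are given as log2 of XRN1-null over WT with the standard error (SE), where 1 is a doubling, and were called at an adjusted p (FDR) below 0.005 in edgeR's quasi-likelihood test, adjusted over all 10105 genes. At this threshold 24 of the 81 mRNAs (29.6%) were higher in XRN1-null cells and 18 (22.2%) were lower, while 39 did not pass. Among all genes 22.9% were called higher and 23.2% lower, so the share of members that changed was not far from that of the table. Of the 24 calls higher in mRNA, 15 held in all 12 alternatives run and 9 were lost in at least 1 (ANAPC2, ANAPC7, CCNT2, CDC23, CDC25A, CDC45, CDC6, CDK16 and CDK6). Of the 18 calls lower in mRNA, 6 held in all and 12 were lost in at least 1 (ANAPC13, ANAPC15, ANAPC16, ANAPC5, CCNE1, CCNG1, CDC123, CDC26, CDK18, CDK2, CDK2AP1 and CDK2AP2), while 12 other members passed as higher and 7 as lower in at least 1. Without XRN1-null RNA-Seq replicate 1 or 2, fewer members were called lower in mRNA, and so were fewer genes of the whole table. The calls of CDK2, CDC25A, CDC45, CDC23 and ANAPC13 were lost in both cases. The alternatives include the looser FDR of 0.05, which changes the threshold and not the fit. By definition it loses no call and can only add calls, in every assay. At this FDR 32.8% of all genes were higher and 34.2% lower in mRNA. In footprints none of the 81 was called higher and 2 were called lower, where 0.633% and 1.14% of all genes were called. For the ratio of footprints to mRNA, the translational efficiency (TE), no member was called higher and 1 was called lower, beside 0.0495% and 1.78% of all genes. At an FDR below 0.05 the members higher and lower were 32 and 23 in mRNA (32.8% and 34.2% of all genes) and 9 and 7 in footprints (7.07% and 8.38%). At an unadjusted p below 0.05, 13 members were higher and 13 lower in footprints, where 16.2% and 16.8% of all genes were, and 3 were higher and 13 lower in TE, where 8.76% and 14.6% of all genes were. At an FDR below 0.005 DESeq2 called no member higher in footprints or TE, where it called 0.97% and 0.0693% of all genes higher. The count of 0 members higher in footprints depends on the setting, with 7 called by the likelihood ratio test, where 4.64% of all genes were called higher, 7 without WT Ribo-Seq replicate 1, where 5.82% were, and 14 without WT Ribo-Seq replicate 2, where 12.7% were. In at least 1 of the 11 alternatives run for footprints other members passed, among them CDK4, CDK6, CDK11A, CDK11B, CDKN2C, CDC5L, CDC6 and CDC27. More genes of the whole table also passed in several of these settings. A footprint difference given as not past the threshold is therefore not shown to be absent.

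The median log2 change of the 81 genes was 0.09 in mRNA, 0.04 in footprints and -0.01 in TE, beside -0.01, -0.00 and 0.01 over all genes. The groups did not share a direction. Counts by role rest on few genes, and in mRNA they stand beside 22.9% of all genes called higher and 23.2% called lower. The mRNAs ran from a log2 change of -1.47 (CCND1) to 1.52 (CDKN2AIP). In 38 members both XRN1-null RNA-Seq libraries lay above both WT libraries and in 29 both lay below, where 41.0% and 43.7% of all genes were separated in this way. In Ribo-Seq the numbers were 29 and 24, beside 32.1% and 32.3% of all genes. In bulk cells, fewer cells in a phase of the cycle and less RNA per cell cannot be told apart.

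**Figure D1:**
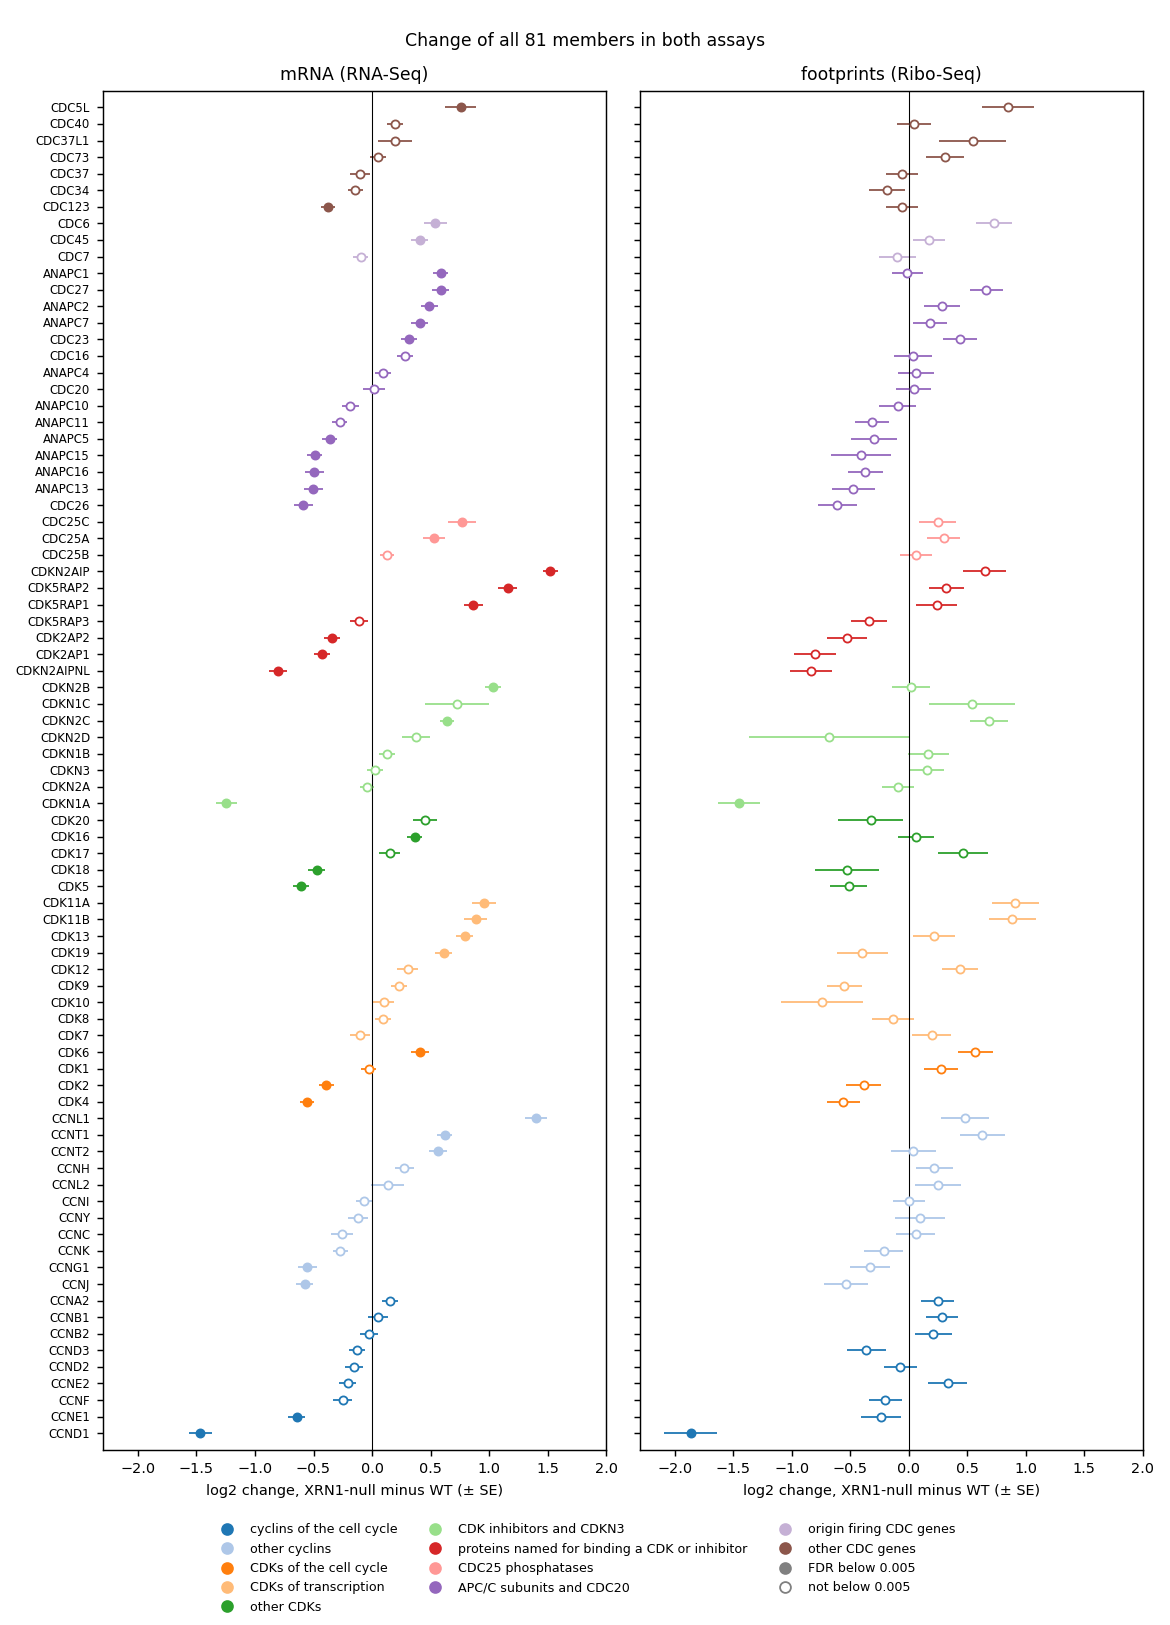
Log2 change between XRN1-null and WT cells of all 81 genes (rows, coloured by role) in mRNA (left) and ribosome footprints (right); points are edgeR estimates, bars are ± 1 SE from 2 replicates per genotype, and filled points passed an FDR of 0.005. In mRNA 42 points are filled and lie on both sides of 0, and in footprints only CCND1 and CDKN1A are filled.

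Among the 9 cyclins that drive the cell cycle, 2 mRNAs were lower and none was higher. CCND1 (cyclin D1, which activates CDK4 and CDK6 in G1) lies on chromosome 11 from 69455924 to 69469242 (GRCh37, 5 exons). Its mRNA was at 53.3 and 60.9 CPM in the WT libraries and at 22.0 and 19.3 CPM in the XRN1-null libraries. Its footprints were at 22.4 and 26.2 CPM in WT and at 6.70 and 6.87 CPM in XRN1-null cells. All 4 XRN1-null values were below all WT values of the same assay by a wide gap. The log2 change was -1.47 ± 0.0973 in mRNA (FDR = 2.14e-05) and -1.86 ± 0.227 in footprints (FDR = 0.00121), the largest falls among the members in both assays. The TE difference of CCND1 was -0.41 ± 0.263 and did not pass (FDR = 0.388). CCND1 shares 497 nt of annotated exons with LTO1 on the opposite strand, and whether the counting used the strand is not given in the sources used here. In all, 35 of the 81 members share exon bases with another gene on the opposite strand, 12 of them with a gene that was also counted, and 10 with another gene on the same strand.

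The other D-type cyclins did not pass with all libraries in mRNA, footprints or TE. CCND2 mRNA was at 47.2 and 52.3 CPM in WT and 46.4 and 42.9 CPM in XRN1-null cells, a log2 difference of -0.15 ± 0.0779 (FDR = 0.114). CCND3 mRNA was at 85.5 and 90.3 CPM in WT and 78.4 and 82.4 CPM in XRN1-null cells, a difference of -0.13 ± 0.0665 (FDR = 0.121). On a length scale (RPKM, CPM per kilobase of the gene width in the table), the WT mRNA level of CCND1 was 13.3 RPKM, beside 7.63 RPKM for CCND2 and 27.8 RPKM for CCND3.

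CCNE1 (cyclin E1, a partner of CDK2 at the start of S phase) had 44.7 and 42.7 CPM of mRNA in WT and 27.3 and 28.6 CPM in XRN1-null cells. The groups were separate and the mRNA was lower by a log2 change of -0.64 ± 0.0711 (FDR = 0.000179). Its footprints were at 30.2 and 27.3 CPM in WT and at 25.3 and 22.8 CPM in XRN1-null cells, a log2 difference of -0.23 ± 0.171 that did not pass (FDR = 0.363). CCNE2 (cyclin E2) had a log2 difference of -0.21 ± 0.0747 in mRNA (FDR = 0.0384) and 0.33 ± 0.166 in footprints (FDR = 0.183). The TE differences of CCNE1 (0.41 ± 0.167, FDR = 0.159) and CCNE2 (0.54 ± 0.166, FDR = 0.0697) were the largest positive ones among the members, and neither passed. CCNE2 shares 1629 nt of exons with INTS8 on the opposite strand.

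The cyclins of S phase and mitosis did not pass the threshold in mRNA with all libraries. CCNB1 (cyclin B1, the mitotic partner of CDK1) was at 186 and 217 CPM in WT and 204 and 214 CPM in XRN1-null RNA-Seq, and the groups overlapped. CCNB1 footprints were at 380 and 453 CPM in WT and 499 and 515 CPM in XRN1-null cells, where the groups did not overlap but the log2 difference of 0.28 ± 0.137 did not pass (FDR = 0.176). The 95% confidence interval of this difference ran from -0.02 to 0.58. CCNA2 (cyclin A2) had 0.15 ± 0.0694 in mRNA (FDR = 0.0894) and 0.25 ± 0.142 in footprints (FDR = 0.249). CCNB2 had -0.03 ± 0.0747 in mRNA (FDR = 0.780) and 0.21 ± 0.159 in footprints (FDR = 0.378). CCNF, the cyclin that serves as the substrate receptor of a ubiquitin ligase, had -0.25 ± 0.0805 in mRNA (FDR = 0.0261), which passed as lower without WT RNA-Seq replicate 1 (-0.33, FDR = 3.37e-06), and -0.20 ± 0.137 in footprints (FDR = 0.332).

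CDK1 and CDC20 belong to the same set of genes that are transcribed late in the cycle. CDK1 mRNA was at 182 and 188 CPM in WT and 179 and 183 CPM in XRN1-null cells, with a log2 difference of -0.03 ± 0.0611 (FDR = 0.686). CDC20, the activator that brings substrates to the APC/C, was at 162 and 195 CPM in WT and 174 and 187 CPM in XRN1-null cells, with a difference of 0.02 ± 0.0956 (FDR = 0.894). None of the 5 late genes CCNA2, CCNB1, CCNB2, CDK1 and CDC20 passed the threshold in mRNA, footprints or TE with all libraries. Without WT Ribo-Seq replicate 2, CCNA2, CCNB1, CCNB2 and CDK1 passed as higher in footprints (FDR = 0.00133, 3.78e-05, 0.00153 and 8.05e-06), and without WT RNA-Seq replicate 2, CCNA2 and CCNB1 passed as higher in mRNA (FDR = 8.80e-05 and 0.00180). Over all alternatives run, the FDR of these 4 genes reached up to 0.829 in footprints and that of CCNA2 and CCNB1 up to 0.925 in mRNA. The signs of the small mRNA differences of CCNB1, CCNB2, CDK1 and CDC20 turned in at least 1 of the alternative settings.

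Promoters of late cell-cycle genes are known for CCAAT boxes and for the CHR element, which is bound by the DREAM and MuvB complexes, and promoters of genes that act at the start of S phase for E2F sites. The 5 stretches shown here come from the RefSeq promoters (GRCh38.p14) of these 5 late genes, because none of them passed the threshold in mRNA with all libraries. Capitals mark CCAAT boxes (CCAAT, or ATTGG on the other strand) and the CHR letters TTTGAA or TTCGAA. Variants of these letters were not searched for, so a stretch with no CHR marked is not shown to lack the element. All are read 5′ to 3′ on the strand of the gene, and 4 of them end at the base before the annotated start.
CCNB1 (chr5:69167040-69167149, plus strand): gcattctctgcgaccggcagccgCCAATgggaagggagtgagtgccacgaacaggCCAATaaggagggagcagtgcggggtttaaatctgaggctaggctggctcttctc
CCNB2 (chr15:59105036-59105145, plus strand): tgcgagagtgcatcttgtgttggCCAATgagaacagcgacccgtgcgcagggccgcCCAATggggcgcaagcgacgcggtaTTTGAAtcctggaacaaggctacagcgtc
CDC20 (chr1:43358871-43358980, plus strand): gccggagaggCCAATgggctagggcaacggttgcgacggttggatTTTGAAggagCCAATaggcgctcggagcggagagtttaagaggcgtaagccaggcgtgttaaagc
CCNA2 (chr4:121823884-121823993, minus strand): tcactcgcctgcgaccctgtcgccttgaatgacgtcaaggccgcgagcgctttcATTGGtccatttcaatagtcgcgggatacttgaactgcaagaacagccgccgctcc
CDK1 (chr10:60778151-60778260, plus strand, 180 to 71 bases before the start): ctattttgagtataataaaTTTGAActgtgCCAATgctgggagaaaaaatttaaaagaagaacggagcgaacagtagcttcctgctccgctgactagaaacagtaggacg

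The promoter table held 74 of the 81 genes and not CCND1, CCND2, CCNE2, CDC37L1, CDC73, CDK2 and CDKN1C. Counted from 250 bases before to 50 bases after the start and on both strands, CCAAT was found in 31 of these 74 promoters (41.9%), beside 35.7% of the 27305 promoters of the table and 38.2% of the 7874 that belong to genes counted here. The CHR letters were found in 12 (16.2%), beside 16.6% and 10.9%. The E2F letters TTTCCCGC, TTTGCCGC, TTTCGCGC or TTTGGCGC, none of which contains the letters of the other motifs, were found in 9 (12.2%), beside 3.33% and 5.88%. The 9 genes with E2F letters were CDC6, CDC25A, CDK1, CDC16, CDC23, CDC37, CDK10, CDK11B and CDK19. A match is a description of the letters and does not show that a factor binds there.

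Among the 4 cell-cycle CDKs, 1 mRNA was higher, 2 were lower and CDK1 did not pass. CDK4 (a partner of the D-type cyclins) was at 360 and 358 CPM in WT and 245 and 243 CPM in XRN1-null RNA-Seq, and at 279 and 238 CPM against 170 and 179 CPM in Ribo-Seq. The groups were separate in both assays, with a log2 change of -0.56 ± 0.0598 in mRNA (FDR = 0.000158) and a difference of -0.56 ± 0.143 in footprints that did not pass (FDR = 0.0234). CDK4 was the member with the highest length-scaled mRNA level in WT cells, at 179 RPKM, and it shares 1369 nt of exons with TSPAN31 on the opposite strand. CDK2 (the partner of cyclins E and A) had 175 and 184 CPM in WT and 140 and 133 CPM in XRN1-null RNA-Seq, a log2 change of -0.39 ± 0.0653 (FDR = 0.00133), and a footprint difference of the same size that did not pass (-0.39 ± 0.152, FDR = 0.101). CDK2 shares 565 nt of exons with a noncoding gene on the opposite strand, ENSG00000258554.

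CDK6, the other partner of the D-type cyclins, moved the opposite way from CDK4. The CDK6 mRNA was at 67.6 and 65.3 CPM in the WT libraries and 94.1 and 82.7 CPM in the XRN1-null ones, a rise of 0.41 ± 0.0790 (FDR = 0.00255). Its footprints were at 34.9 and 35.6 CPM in WT and 51.9 and 53.1 CPM in XRN1-null cells, a difference of 0.57 ± 0.148 that did not pass (FDR = 0.0253). CDK6 was at 5.65 RPKM of mRNA in WT cells, well under the level of CDK4.

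The 7 CDK inhibitors of the CDKN1 and CDKN2 families also held mRNAs of both directions, with 2 higher and 1 lower. CDKN1A (p21, an inhibitor of CDK2 complexes) lies on chromosome 6 from 36644237 to 36655114 with 3 exons. The WT libraries held 78.8 and 82.0 CPM of its mRNA and the XRN1-null libraries 36.7 and 31.3 CPM. Its footprints were at 42.2 and 37.7 CPM in WT and at 14.2 and 14.7 CPM in XRN1-null cells. CDKN1A was lower in both assays with no overlap, by a log2 change of -1.24 ± 0.0862 in mRNA (FDR = 2.42e-05) and -1.45 ± 0.176 in footprints (FDR = 0.00121). Its TE difference was -0.21 ± 0.198 (FDR = 0.581). CCND1 and CDKN1A were the only members called in both mRNA and footprints, and neither call was lost under any alternative run for that assay. CDKN1A shares 146 nt of exons with the noncoding gene DINOL on the opposite strand.

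CDKN2B (p15, an inhibitor of CDK4 and CDK6) lies on chromosome 9 from 22002902 to 22009304 with 2 exons and a coding length of 414 nt. Its mRNA was at 25.5 and 25.3 CPM in WT and at 52.3 and 51.8 CPM in XRN1-null cells, a rise of 1.03 ± 0.0661 (FDR = 1.83e-05). Its footprints were at 66.2 and 49.8 CPM in WT and at 55.6 and 59.3 CPM in XRN1-null cells, so the groups overlapped, with a log2 difference of 0.02 ± 0.164 (FDR = 0.941). Footprints per mRNA were thus 2.59 and 1.97 in the WT cultures and 1.06 and 1.15 in the XRN1-null ones. The TE of CDKN2B was lower by a log2 change of -1.0 ± 0.161 (FDR = 0.00317), the one TE call among the members. This call was lost when the RNA-Seq counts were thinned to the Ribo-Seq depth (FDR = 0.00758) and without WT RNA-Seq replicate 2 or any 1 of the 4 XRN1-null libraries, where the FDR reached 0.0438 and the change stayed negative. Over all alternatives the log2 change ran from -1.23 to -0.83 and the FDR from 1.33e-08 to 0.0438.

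CDKN2A, the neighbour of CDKN2B that encodes p16 and ARF, did not pass. Its mRNA was at 275 and 284 CPM in WT and 271 and 273 CPM in XRN1-null cells, a difference of -0.04 ± 0.0610 (FDR = 0.564) with a 95% interval of -0.18 to 0.10. Its annotated exons share 593 nt with CDKN2B-AS1 on the opposite strand. CDKN2C (p18, of the same inhibitor family) was at 79.1 and 76.9 CPM in WT and 121 and 122 CPM in XRN1-null RNA-Seq, and at 43.2 and 33.8 CPM against 58.6 and 61.8 CPM in Ribo-Seq. Its mRNA was higher by 0.64 ± 0.0617 (FDR = 9.82e-05), and the footprint difference of 0.68 ± 0.162 did not pass (FDR = 0.0175).

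The other inhibitors had no call with all libraries. CDKN1B (p27) had a log2 difference of 0.13 ± 0.0672 in mRNA (FDR = 0.134) and 0.17 ± 0.176 in footprints (FDR = 0.537). CDKN1C (p57) was barely detected, at 2.00 and 3.87 CPM in WT and 4.36 and 5.27 CPM in XRN1-null RNA-Seq, and its difference of 0.73 ± 0.274 (FDR = 0.0472) passed without WT RNA-Seq replicate 2 (FDR = 1.36e-05) and turned sign when the counts were thinned. CDKN2D (p19) had a difference of 0.37 ± 0.118 in mRNA (FDR = 0.0236), which passed in the likelihood ratio test, while its footprints were at 7.81 and 1.84 CPM in WT and 3.23 and 1.25 CPM in XRN1-null cells and were too few to give a direction. CDKN3, a phosphatase that acts on CDKs, had 0.02 ± 0.0655 in mRNA (FDR = 0.760) and 0.15 ± 0.147 in footprints (FDR = 0.50).

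**Figure D2:**
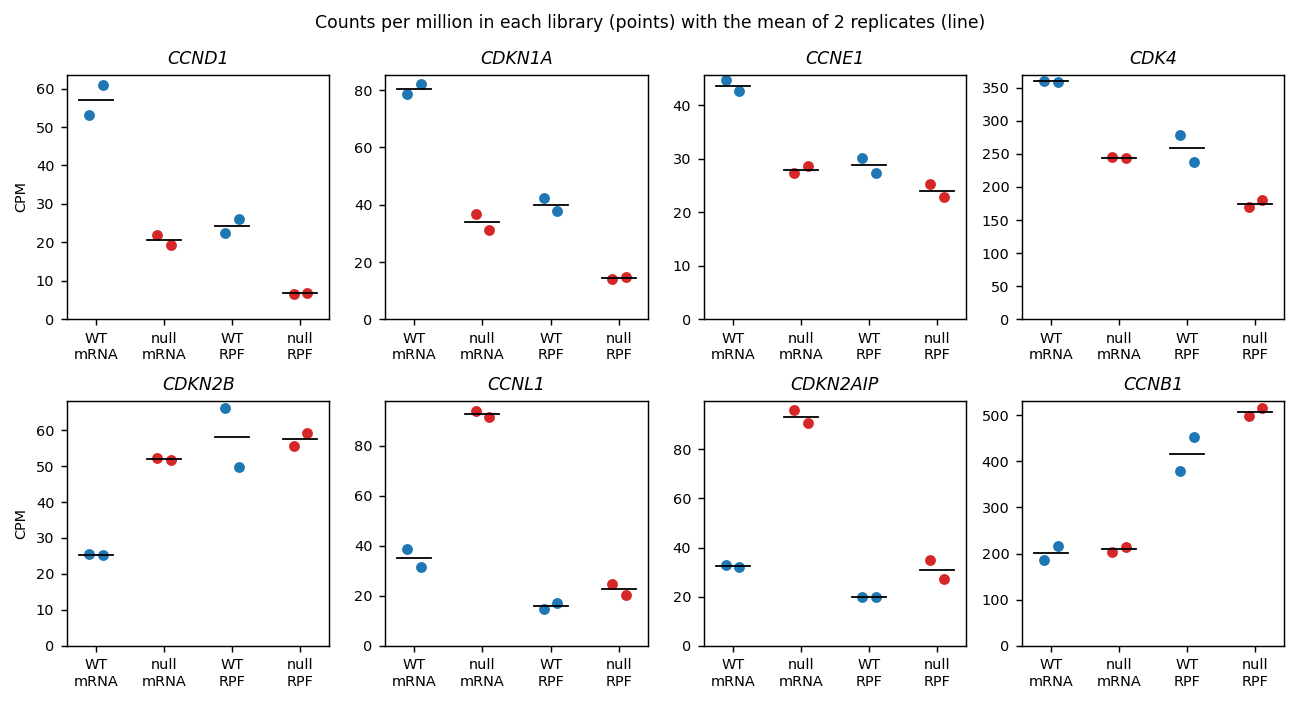
CPM (vertical axis, from 0) of 8 genes in each library, with WT in blue, XRN1-null in red, mRNA on the left and footprints (RPF) on the right of each panel; points are single libraries and lines the mean of 2. CCND1 and CDKN1A are lower in both assays, CDKN2B is higher in mRNA (25.5 and 25.3 against 52.3 and 51.8 CPM) and overlaps in footprints, and CCNB1 overlaps in mRNA.

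Of the 9 kinases that act on transcription, 4 were higher in mRNA and none was lower, where 22.9% and 23.2% of all genes were called. Their median log2 change was 0.30, and the 4 include CDK11A and CDK11B, which may share reads. CDK13 (a kinase of the RNA polymerase II tail) was at 48.3 and 52.7 CPM in WT and 89.97 and 84.8 CPM in XRN1-null cells, a rise of 0.79 ± 0.0729 (FDR = 8.04e-05). CDK19, a kinase of the Mediator complex, was at 40.8 and 36.7 CPM in WT and 59.8 and 58.9 CPM in XRN1-null cells, a rise of 0.61 ± 0.0727 (FDR = 0.000242). Its close relative CDK8 showed 0.10 ± 0.0682 (FDR = 0.248).

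CDK11A and CDK11B are neighbouring, nearly identical genes on chromosome 1, and how reads were shared between them is uncertain. CDK11A mRNA was at 14.0 and 16.7 CPM in WT and 28.6 and 30.9 CPM in XRN1-null cells, a rise of 0.96 ± 0.105 (FDR = 0.000174). CDK11B mRNA was at 29.9 and 36.4 CPM in WT and 58.8 and 63.6 CPM in XRN1-null cells, a rise of 0.88 ± 0.0997 (FDR = 0.000195). Their footprint differences, 0.91 ± 0.201 (FDR = 0.0132) and 0.89 ± 0.199 (FDR = 0.0140), were the largest positive ones among the members and did not pass with all libraries. Each passed in 6 of the 11 alternatives run, among them the looser FDR threshold, which both pass by definition. When single libraries were left out, the log2 difference in footprints ran from 0.69 to 1.37 for CDK11A and from 0.66 to 1.35 for CDK11B. CDK11A also shares 2448 nt of exons with a noncoding gene on the same strand, ENSG00000268575. The order of the 4 libraries was the same for both genes in each assay.

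CDK9, the kinase of P-TEFb that releases paused RNA polymerase II, had a different pattern. CDK9 mRNA was at 39.7 and 41.2 CPM in WT and 48.3 and 46.6 CPM in XRN1-null cells, a difference of 0.23 ± 0.0654 (FDR = 0.0155). Its footprints were at 43.2 and 43.6 CPM in WT and 30.5 and 28.7 CPM in XRN1-null cells, a difference of -0.55 ± 0.153 (FDR = 0.0329). Both assays separated the genotypes, in opposite directions. The TE difference of CDK9 was -0.78 ± 0.144 and missed the threshold (FDR = 0.00702). It passed in 5 of the 18 alternatives run (FDR down to 6.85e-05), among them the looser FDR threshold, which it passes by definition. CDK19 footprints were at 22.9 and 17.0 CPM in WT and 14.9 and 14.0 CPM in XRN1-null cells, a difference of -0.40 ± 0.219 that did not pass (FDR = 0.227), and its TE difference also missed the threshold at -1.0 ± 0.217 (FDR = 0.0159).

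CDK7, the kinase that activates other CDKs, had a mRNA difference of -0.10 ± 0.0860 (FDR = 0.32). CDK12 had 0.30 ± 0.0902 (FDR = 0.0187) and CDK10 0.10 ± 0.0882 (FDR = 0.341). None of them passed in footprints or TE.

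Cyclins outside the core cycle included several partners of these kinases. CCNL1 (cyclin L1, a partner of CDK11 in splicing) was at 38.5 and 31.6 CPM in WT and 93.9 and 91.5 CPM in XRN1-null RNA-Seq, and at 14.6 and 17.2 CPM against 24.8 and 20.3 CPM in Ribo-Seq. Its mRNA rose by 1.40 ± 0.0954 (FDR = 2.31e-05), while the footprint difference was 0.48 ± 0.203 (FDR = 0.125) and the TE difference -0.93 ± 0.236 (FDR = 0.0340). The paralog CCNL2 did not pass, with 0.13 ± 0.144 in mRNA (FDR = 0.439). CCNT1 and CCNT2, the cyclins that bind CDK9, rose by 0.62 ± 0.0632 (FDR = 0.000125) and 0.56 ± 0.0758 (FDR = 0.000461).

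Other cyclins were lower or did not pass. CCNJ fell by 0.58 and CCNG1 (cyclin G1) by 0.55 on the log2 scale in mRNA, with an FDR of 0.000296 and 0.000727. CCNG1 was at 326 and 295 CPM in WT and 224 and 200 CPM in XRN1-null cells. CCNK, the partner of CDK12 and CDK13, had -0.27 ± 0.0622 (FDR = 0.00606) and shares 4893 nt of exons with CCDC85C on the opposite strand. The remaining members of this group, CCNC, CCNH, CCNI and CCNY, had mRNA differences of -0.26 to 0.28 that did not pass. No cyclin of this group passed in footprints.

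Among the other CDKs, CDK5, a kinase best known from neurons, fell by 0.61 on the log2 scale (FDR = 0.000197) and CDK18 by 0.47 (FDR = 0.000941). CDK16 rose by 0.36 ± 0.0631 (FDR = 0.00154). CDK17 and CDK20 did not pass, with 0.15 ± 0.0897 (FDR = 0.173) and 0.45 ± 0.10 (FDR = 0.00512).

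Of the 7 genes named for binding a CDK or an inhibitor, 3 mRNAs were higher and 3 lower, and the group held the largest rise of all. CDKN2AIP (CARF, a protein that binds ARF) lies on chromosome 4 from 184365788 to 184370217. Its mRNA was at 32.9 and 31.9 CPM in WT and at 95.9 and 90.6 CPM in XRN1-null cells, and its footprints at 19.8 and 19.98 CPM against 34.8 and 27.2 CPM. The groups were far apart in mRNA and closer in footprints, with log2 changes of 1.52 ± 0.0672 (FDR = 5.05e-06) and 0.65 ± 0.188 (FDR = 0.0384), and a TE difference of -0.87 ± 0.188 (FDR = 0.0156). CDKN2AIPNL, a small relative of CDKN2AIP, was at 71.8 and 64.1 CPM in WT and 39.6 and 38.2 CPM in XRN1-null RNA-Seq, a log2 change of -0.80 ± 0.0758 (FDR = 8.92e-05). The related pair thus moved in opposite directions.

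CDK5RAP2 (a centrosomal protein that anchors microtubule nucleation) was at 63.4 and 73.3 CPM in WT and 151 and 154 CPM in XRN1-null RNA-Seq, and at 60.4 and 73.5 CPM against 87.4 and 82.4 CPM in Ribo-Seq. Its mRNA rose by 1.16 ± 0.0818 (FDR = 2.64e-05) and its footprints differed by 0.32 ± 0.147 (FDR = 0.150). Its TE differed by -0.84 ± 0.162, which missed the threshold (FDR = 0.00837). The TE difference passed in 8 of the 18 alternatives run (FDR down to 2.90e-05), among them the looser FDR threshold, which it passes by definition. CDK5RAP1, an enzyme that modifies mitochondrial tRNAs, rose by 0.87 ± 0.0825 in mRNA (FDR = 9.28e-05). CDK2AP1 and CDK2AP2 fell by 0.43 and 0.34 on the log2 scale in mRNA (FDR = 0.000901 and 0.00387), and CDK5RAP3 had -0.11 ± 0.0750 (FDR = 0.214). CDK2AP1 shares 1456 nt of exons with MTRFR on the opposite strand, and CDK5RAP3 1860 nt with a noncoding gene on the same strand, ENSG00000263798.

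The 3 CDC25 phosphatases, which activate CDKs, had positive differences in mRNA. CDC25A was at 157 and 189 CPM in WT and 248 and 253 CPM in XRN1-null cells, a rise of 0.53 ± 0.0917 (FDR = 0.00155). CDC25C was at 17.1 and 22.2 CPM in WT and 33.3 and 33.6 CPM in XRN1-null cells, a rise of 0.77 ± 0.120 (FDR = 0.000926). CDC25B had 0.13 ± 0.0632 and did not pass (FDR = 0.110). None of the CDC25 genes passed in footprints, with differences of 0.06 to 0.30.

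The CDC genes of replication origins gave 2 rises. CDC6, which loads the replicative helicase, had 97.9 and 119 CPM in WT and 154 and 162 CPM in XRN1-null RNA-Seq, and 86.5 and 107 CPM against 153 and 171 CPM in Ribo-Seq. Both assays separated the genotypes, with a rise of 0.54 ± 0.0968 in mRNA (FDR = 0.00181) and a footprint difference of 0.73 ± 0.152 that did not pass (FDR = 0.0107). CDC45, a subunit of that helicase, rose by 0.41 ± 0.0731 in mRNA (FDR = 0.00186). CDC7, the kinase that triggers origin firing, had -0.10 ± 0.0631 (FDR = 0.214).

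Of the 7 other CDC genes, 1 mRNA was higher and 1 lower. CDC5L, a splicing factor, was at 54.3 and 74.6 CPM in WT and 105 and 113 CPM in XRN1-null RNA-Seq, and at 58.3 and 112 CPM against 154 and 163 CPM in Ribo-Seq. The WT replicates lay far apart in both assays, and the log2 changes were 0.76 ± 0.135 in mRNA (FDR = 0.00180) and 0.85 ± 0.222 in footprints (FDR = 0.0259). CDC123 (an assembly factor of the initiation factor eIF2) fell by 0.38 on the log2 scale in mRNA (FDR = 0.00107). CDC34, CDC37, CDC37L1, CDC40 and CDC73 had mRNA differences of -0.14 to 0.20 that did not pass.

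The 15 genes of the APC/C and CDC20 held 5 mRNAs that were higher, 5 that were lower and 5 that did not pass the threshold. The called shares were 33.3% in each direction, beside 22.9% and 23.2% of all genes. These counts depend on the setting. CDC16 passed as higher in 7 of the alternatives run, among them the looser FDR threshold, which it passes by definition. The calls of CDC23, ANAPC5, ANAPC7 and ANAPC13 were each lost in 3. ANAPC1, the large scaffold subunit, was at 172 and 164 CPM in WT and 258 and 247 CPM in XRN1-null RNA-Seq, a rise of 0.59 ± 0.0640 (FDR = 0.000168), while its footprints were at 167 and 174 CPM in WT and 171 and 168 CPM in XRN1-null cells. CDC27, a core subunit of the TPR lobe, was at 170 and 190 CPM in WT and 276 and 264 CPM in XRN1-null RNA-Seq, a rise of 0.59 ± 0.0739 (FDR = 0.000326), and its footprints differed by 0.66 ± 0.144 (FDR = 0.0124). The same mRNA rise thus came with different footprint values, and the TE differences were -0.60 ± 0.130 (FDR = 0.0161) for ANAPC1 and 0.07 ± 0.152 (FDR = 0.824) for CDC27. ANAPC1 has 6 annotated pseudogenes and CDC27 has 2, which can share reads with them.

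The other APC/C subunits that rose were the catalytic ANAPC2 (0.49 ± 0.0740, FDR = 0.000792), ANAPC7 (0.41 ± 0.0738, FDR = 0.00191) and CDC23 (0.32 ± 0.0664, FDR = 0.00387). Those that fell were small subunits and ANAPC5. CDC26, which stabilizes CDC16, was at 39.8 and 35.4 CPM in WT and 24.9 and 25.2 CPM in XRN1-null RNA-Seq, a log2 change of -0.59 ± 0.0830 (FDR = 0.000582). ANAPC13, ANAPC16, ANAPC15 and ANAPC5 fell by 0.50, 0.49, 0.49 and 0.36 on the log2 scale. On the opposite strand ANAPC15 shares 780 nt of exons with LRTOMT, ANAPC13 455 nt with CEP63 and ANAPC16 139 nt with ASCC1, all of which were counted. ANAPC4, ANAPC10, ANAPC11 and CDC16 had differences of -0.28 to 0.28 that did not pass.

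The rises and falls within the APC/C lay at different coding lengths. The 5 subunits that rose have reference coding lengths of 1695 to 5832 nt, and 4 of the 5 that fell have 222 to 363 nt. ANAPC5, with 2265 nt, is the exception. Over all 81 members the median coding length was 1750.5 nt for those higher in mRNA, 880.5 nt for those lower and 1131 nt for those not past the threshold.

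All genes of the table showed a relation of the same sign. Across genes, Spearman's rho between coding length and the mRNA log2 change was 0.57 over the 81 members (Pearson's r = 0.48) and 0.50 over 9322 genes (Pearson's r = 0.40). These values describe genes measured in the same libraries, which are not independent replicates. For footprints rho was 0.53 over the members and 0.35 over all genes, and for TE -0.15 and -0.29. Whether library preparation or read mapping had a part in this was not tested.

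All genes were divided into 4 classes of about equal size by coding length. In the shortest class (75 to 852 nt) 2 of 18 members were higher and 8 lower in mRNA, where 5.49% and 47.0% of all genes were called. In the next class (855 to 1362 nt) 1 of 26 members was higher and 8 were lower, beside 14.0% and 23.1% of all genes. In the third class (1365 to 2187 nt) 13 of 25 were higher and 1 lower, beside 24.7% and 14.4%. In the longest class (2190 to 23454 nt) 8 of 12 were higher and 1 lower, beside 46.9% and 7.74%. CDKN2B and CDKN2C were the members that rose in the shortest class, and CDK6 in the next. CDK18 and ANAPC5 were the members that fell among the longer genes.

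The members called in mRNA were followed into the footprints. Of the 24 members with higher mRNA, 22 had a positive footprint difference and 18 a negative TE difference, with a median log2 change of 0.62 in mRNA, 0.31 in footprints and -0.24 in TE. Among all 2313 genes with higher mRNA, 83.1% had a positive footprint difference and 84.7% a negative TE difference, with medians of 0.69, 0.33 and -0.39. The exceptions in footprints were CDK19 and ANAPC1. Of the 18 members with lower mRNA, all 18 had a negative footprint difference, with a median of -0.53 in mRNA, -0.52 in footprints and 0.02 in TE, and 7 had a negative TE difference. Among all 2344 genes with lower mRNA, 94.1% had a negative footprint difference and 27.8% a negative TE difference, with medians of -0.53, -0.40 and 0.15. These medians share the RNA-Seq values that chose the genes and are a description with no test. The 7 members at an FDR below 0.05 in TE were all lower (CDKN2B, CDK9, CDK5RAP2, CDKN2AIP, CDK19, ANAPC1 and CCNL1), at a threshold where 1.02% of all genes were higher and 6.46% lower. All 7 had a positive mRNA difference, a value that also enters TE.

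**Figure D3:**
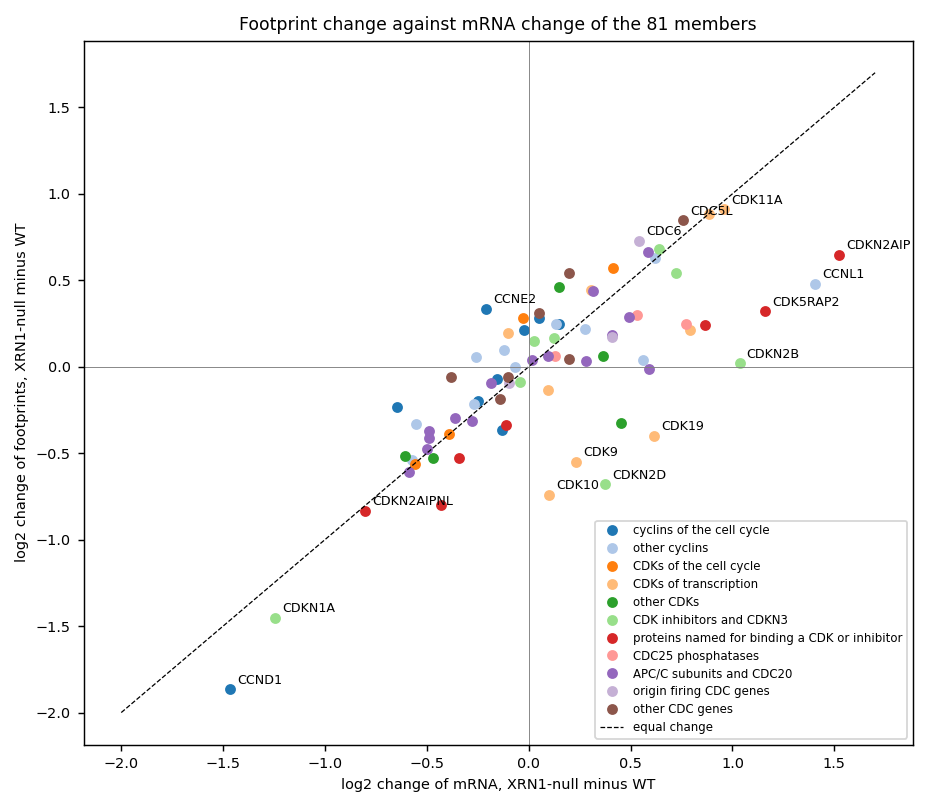
Log2 change of footprints (vertical axis) against log2 change of mRNA (horizontal axis), XRN1-null minus WT, for the 81 genes coloured by role; the dashed line marks equal change. CCND1 and CDKN1A lie near the line at the lower left, and CDKN2AIP, CCNL1, CDK5RAP2 and CDKN2B lie below it at the right.

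In WT cells the members spanned a wide range of footprints per mRNA, the ratio of Ribo-Seq CPM to RNA-Seq CPM, which is relative to the average gene and no absolute rate. The median of the 81 genes was 0.801, beside 0.815 over the 10078 genes with counts in both assays. The highest members were CDKN2B (2.26), CCNB1 (2.06), CDK1 (2.04), CCND2 (1.87) and CDC25C (1.84). The lowest were CCNY (0.156), CDK16 (0.161) and CCNL2 (0.184). The order depends on the length scale. With footprints per coding length over mRNA per gene width, a setting added after the data were examined, CDKN2B stayed at rank 1 of the 81, CDK1 was at rank 5, CCNB1 at rank 12, CCNY at rank 75 and CDK16 at rank 81.

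By role, the cyclins outside the core cycle had a median ratio of 0.455, and 1 of 11 (CCNH) lay above the median of all genes. The APC/C genes had a median of 1.03, with 10 of 15 above. The cyclins and CDKs of the cell cycle had medians of 0.864 and 0.784. The replicates of 1 gene differed widely where counts were few, as for CDKN2D.

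**Figure D4:**
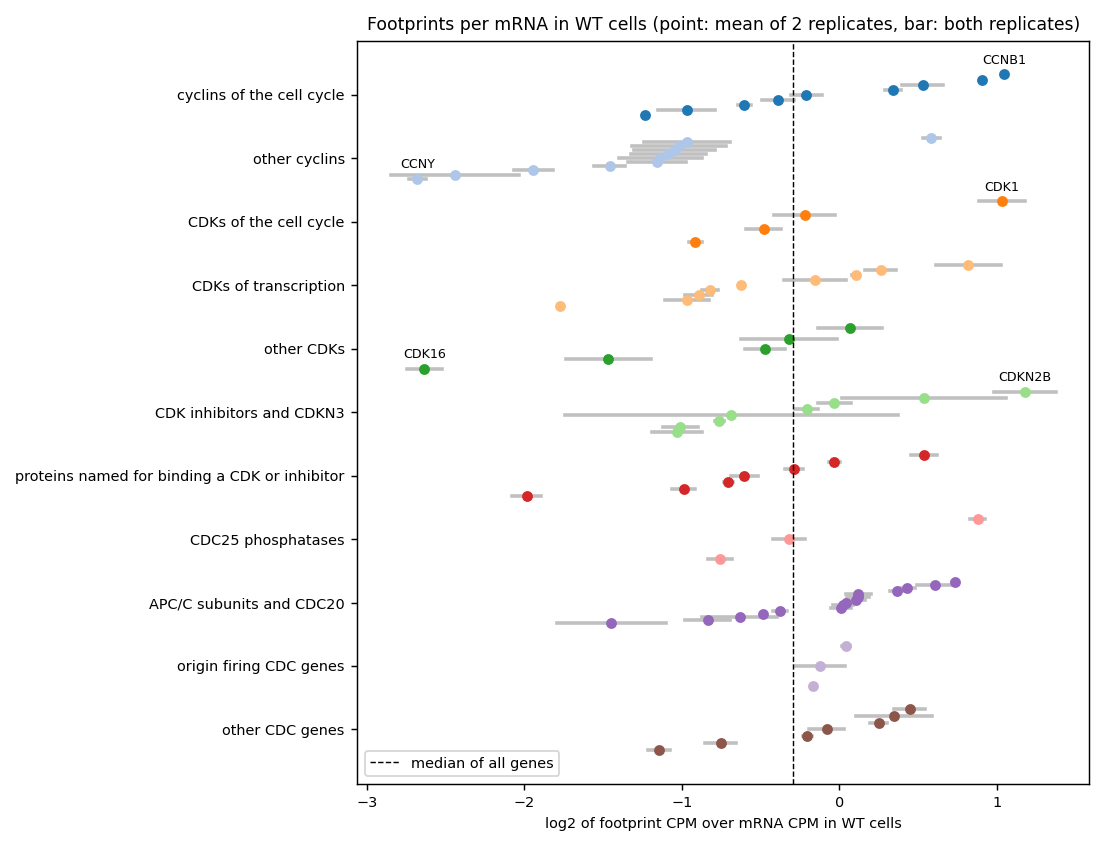
Log2 ratio of footprint CPM to mRNA CPM in WT cells (horizontal axis) for the 81 genes by role; points are the mean of 2 replicates, grey bars join the replicates, and the dashed line is the median of all genes. CDKN2B, CCNB1 and CDK1 lie at the right end and CCNY and CDK16 at the left end.

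A list of 58 other genes of the cell cycle was set beside the members, holding the RB and E2F families, the DREAM complex, and the mitotic kinases and checkpoint proteins. In mRNA 17 of them were higher and 18 lower, in footprints none was higher and 1 was lower, and in TE none was higher and 3 were lower. These are 29.3% and 31.0% in mRNA, where 22.9% and 23.2% of all genes were called, 1.72% lower in footprints, where 1.14% were, and 5.17% lower in TE, where 1.78% were. E2F4, a repressive member of the E2F family, was at 153 and 138 CPM in WT and 65.1 and 65.2 CPM in XRN1-null RNA-Seq, a log2 change of -1.16 ± 0.0726 (FDR = 1.75e-05). RBL1 (p107, which binds E2F4) was at 42.5 and 45.5 CPM in WT and 89.0 and 90.7 CPM in XRN1-null RNA-Seq, a rise of 1.03 ± 0.0667 (FDR = 1.91e-05). Both were separated between the genotypes, in opposite directions.

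RB1, the retinoblastoma protein that CDK4 and CDK6 phosphorylate, rose by 0.57 ± 0.0795 in mRNA (FDR = 0.000540). The one footprint call was PKMYT1, which inhibits CDK1, with a log2 change of -0.97 ± 0.150 (FDR = 0.00329), and this call was lost without XRN1-null Ribo-Seq replicate 1 or 2 (FDR up to 0.0170). The TE calls were ATM (-1.48 ± 0.135, FDR = 8.56e-05), ESPL1 (-1.03 ± 0.143, FDR = 0.00134) and MDM4 (-1.0 ± 0.127, FDR = 0.000778), of which ATM is a DNA damage kinase and ESPL1 the protease separase. The call of ATM held in all 18 alternatives run. Those of ESPL1 and MDM4 were lost without any 1 of the 4 XRN1-null libraries, and also without WT Ribo-Seq replicate 2 for ESPL1 and after thinning for MDM4 (FDR up to 0.0239 and 0.0145). Like CDKN2B, each of the genes called in TE had higher mRNA in XRN1-null cells and a footprint difference that did not pass. TE is computed from the same mRNA values, so this is a description with no test.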

How the data were processed

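RNA-Seq and Ribo-Seq libraries of WT and XRN1-null HEK293T cells (2 replicates each) were analysed from the raw counts per gene that the authors deposited. Per the labels and the paper's methods, the authors filtered out rRNA reads (Bowtie2), aligned the rest to hg19 (TopHat2), kept footprints of 29 and 30 nt, counted with QuasR and kept genes above an FPKM minimum. The strand setting and the annotation used for counting are not given in the sources used here. The deposited log2 fold changes, p-values, FDR values and TE ratios of the authors' own comparisons were not used.

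Counts were fitted with edgeR 4.0.16 in R 4.3.3 (glmQLFit, glmQLFTest), with TMM factors within each assay, genotype as the only term, and for TE the interaction of assay and genotype over all 8 libraries. No gene was removed. SE is the log2 change divided by the square root of F, and CPM are per 1000000 TMM-scaled counts. SE and intervals rest on a variance that edgeR estimates with information from all genes. They cover counting error and the spread between 2 replicates only. Each p-value sets a genotype difference against that spread between these cultures. RiboDiff, which the study used for TE, was not run.

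The members, roles and lists were chosen with earlier results of these data known. The genes named by rule were XRN1, members called in RPF or TE, the 10 largest rises and 10 largest falls in mRNA and a list of core members. Others were named to account for every member, after their values were seen. Alternatives were library totals or RLE factors, TMM factors over the 8 libraries together, a minimum of 10 counts, DESeq2 1.42.0, the likelihood ratio test, an FDR of 0.05, replicate and culture blocks, RNA-Seq thinned to the mean Ribo-Seq total, and leaving out each library.

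Positions, exons and coding lengths came from GENCODE release 44 on GRCh37, which matched all 81 members and 94.5% of the 10105 genes. Promoters came from RefSeq (GRCh38.p14). The main fits were run first on simulated counts with the same variability in both genotypes, unlike the replicates here. Of simulated log2 changes of 1 in size, 100% were recovered in mRNA, 76% in RPF and 73.1% in TE. The alternatives were not simulated. A gene of the cell-cycle list is not reported here.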

Additional observations from a re-analysis of the deposited data

How the results depend on the processing

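Over the alternatives run, none of the 81 members or the 58 other cell-cycle genes changed sign in mRNA, RPF or TE where either value was called. For members lower in mRNA, thinning gave 9 and leaving out 1 library 9 to 22, with the 9 and 10 without XRN1-null RNA-Seq replicates 2 and 1. For members in RPF, the likelihood ratio test called 7 higher and 5 lower, an FDR of 0.05 9 and 7, the replicate block 7 and 6, and leaving out 1 library 0 to 14 and 2 to 11, with 14 and 11 without WT replicate 2 and 7 and 6 without WT replicate 1. Of all genes, the likelihood ratio test called 4.64% higher and 5.9% lower in RPF, and an FDR of 0.05 called 7.07% and 8.38%. Without WT Ribo-Seq replicate 1 or 2, more of all genes were also called in RPF, in both directions. For members lower in TE, library totals, DESeq2 and TMM over all libraries each gave 3, where 2.27%, 3.19% and 2.47% of all genes were called lower. The likelihood ratio test gave 7, an FDR of 0.05 7 and the culture block 6, where 5.9%, 6.46% and 4.3% of all genes were. The number also moved when 1 library was left out. Without a library, the remaining one of its group was assumed to vary like the other groups. For the other cell-cycle genes, leaving out 1 library gave 11 to 26 higher and 5 to 25 lower in mRNA, 0 to 10 and 0 to 8 in RPF, and 1 to 4 lower in TE, where the lowest mRNA counts came without XRN1-null replicate 2 and the highest RPF counts without WT replicate 2. There the likelihood ratio test, the FDR of 0.05 and the block called 5, 6 and 5 higher and 4, 5 and 4 lower in RPF, and in TE the likelihood ratio test, the FDR of 0.05 and the culture block each called 1 higher and 5 lower. The median log2 footprint ratio of the members in WT cells, less that of all genes, was -0.02, with -0.066 without WT replicate 1 and -0.00838 without WT replicate 2, and -0.01 with coding length, which was added after the data were examined. The causes were not tested.

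The replicate numbers are not stated to mark a shared preparation. Libraries with the same number deviated from their group means with a correlation of 0.178 in mRNA and 0.0742 in RPF, and the mRNA and RPF libraries of 1 number at 0.341 in WT and 0.0206 in XRN1-null cells. With 2 pairs the numbers were not taken as pairing. With the replicate block 49 members were called in mRNA, 13 in RPF and 1 in TE. Of all genes it called 28.3% higher and 27.8% lower in mRNA, 6.1% and 6.58% in RPF, and 0.0693% and 1.88% in TE. Among the named genes the calls lost were in mRNA with thinning or without an XRN1-null RNA-Seq library (CCNE1, CDK2, CDK6, CDC25A, CDC6, CDC45, CDC23, CDC26, CCNG1 and ANAPC13) and the TE of CDKN2B. Scalings moved the median of all genes by at most 0.06 on the log2 scale. Without WT Ribo-Seq replicate 2, CCNA2, CCNB1, CCNB2 and CDK1 gained a call in RPF. With the replicate block CDKN1C gained one in mRNA.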
